A study of Mus musculus with 5 samples.

Results

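Clotting factors and the plasma proteins made beside them were examined as a group of 34 genes in mouse liver tumors with and without late overexpression (OE) of the transcription factor gene Prox1. The genes were taken by symbol, and all 34 were found among the 55397 genes of the deposited expression table. The group holds the 3 chains of fibrinogen, the fibrinogen-like gene Fgl1, 7 vitamin K-dependent factors, 7 cofactor, contact and crosslinking factors, 3 liver-made proteins of fibrinolysis, 8 carrier and matrix proteins, and 5 genes of the cell surface or of many cell types. The first 29 are textbook products of the hepatocyte.

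The data were RNA-seq profiles of dissected cholangiocarcinoma (CCA) tumors, 2 Control and 3 Prox1 OE libraries, from female C57BL/6N mice injected at 8 weeks of age. Tumors of both groups were started by hydrodynamic tail vein injection of transposon plasmids for Akt and for NICD, the active part of a NOTCH receptor, both behind the EF1a promoter, with the doxycycline-responsive activator rtTA on the NICD plasmid. A further plasmid behind the doxycycline-inducible Tre promoter carried FLAG-tagged mouse Prox1 with IRES-GFP in Prox1 OE and IRES-GFP alone in Control, and doxycycline food (6.25%) from day 21 turned it on for week 3 to 4. Tumors were taken 1 week into overexpression or once a humane endpoint was reached, the labels do not say which, nor do they tie libraries to separate mice, so that p-values measure the spread between these libraries, which may be technical. The labels call the cells transformed hepatocytes, but whole tumor pieces were used, and in bulk tissue fewer cells of a type and less RNA per cell cannot be told apart.

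Clotting ends when thrombin, made from prothrombin (F2), cuts fibrinogen into fibrin. Hepatocytes make nearly all of the zymogens upstream of that step and send them to the blood, where tissue factor (F3) on cell surfaces starts the cascade through factor VII. Several factors need a vitamin K-dependent modification to bind membranes, and plasmin, made from plasminogen (Plg) by the activators Plat and Plau, later dissolves the clot. Fibrinogen is also an acute phase protein, raised in liver by interleukin 6 (IL-6).

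The start regions of 6 members are shown because the fibrinogen chains, whose genes lie side by side, are compared with the factors that rose most. Klkb1, F10 and F7 are the other members with the highest log2 fold changes that had an entry. RefSeq start regions on GRCm38.p6 matched 27 of the 34 members (29 promoters), not Fgl1, Thbd, Plat, Kng1, Plg, Proc or Plau. Each line gives bases before the RefSeq transcript start on the gene's strand, from 5′ to 3′, and leaves out bases that the GENCODE annotation places inside the gene (77 for Fga and 24 for Klkb1). The regions are chr3:83025903-83026075 (plus strand) for Fga, chr3:83049864-83050113 (minus strand) for Fgb, chr3:83007474-83007723 (plus strand) for Fgg, chr8:45294860-45295085 (minus strand) for Klkb1, chr8:13037058-13037307 (plus strand) for F10, chr8:13025784-13026033 (plus strand) for F7.
Fga: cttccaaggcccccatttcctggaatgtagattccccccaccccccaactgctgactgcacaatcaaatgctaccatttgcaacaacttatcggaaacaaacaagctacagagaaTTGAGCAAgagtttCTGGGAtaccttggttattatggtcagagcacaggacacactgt
Fgb: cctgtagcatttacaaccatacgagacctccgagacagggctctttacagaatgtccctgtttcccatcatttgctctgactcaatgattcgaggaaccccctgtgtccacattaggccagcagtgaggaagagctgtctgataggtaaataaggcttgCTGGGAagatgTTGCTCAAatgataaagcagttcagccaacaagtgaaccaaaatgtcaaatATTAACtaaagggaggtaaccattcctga
Fgg: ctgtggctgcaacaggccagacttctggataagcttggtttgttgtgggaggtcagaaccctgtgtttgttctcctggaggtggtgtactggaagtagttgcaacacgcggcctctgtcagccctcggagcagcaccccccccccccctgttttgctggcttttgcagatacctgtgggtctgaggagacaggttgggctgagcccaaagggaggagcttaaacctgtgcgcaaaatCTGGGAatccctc
Klkb1: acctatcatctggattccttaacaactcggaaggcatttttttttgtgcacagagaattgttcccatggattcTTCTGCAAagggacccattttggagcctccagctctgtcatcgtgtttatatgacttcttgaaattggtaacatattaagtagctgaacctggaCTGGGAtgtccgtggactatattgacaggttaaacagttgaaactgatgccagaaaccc
F10: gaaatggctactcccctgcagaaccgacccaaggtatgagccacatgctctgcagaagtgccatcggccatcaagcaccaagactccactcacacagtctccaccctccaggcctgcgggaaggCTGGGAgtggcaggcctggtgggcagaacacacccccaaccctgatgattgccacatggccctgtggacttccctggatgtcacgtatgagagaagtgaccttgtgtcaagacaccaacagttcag
F7: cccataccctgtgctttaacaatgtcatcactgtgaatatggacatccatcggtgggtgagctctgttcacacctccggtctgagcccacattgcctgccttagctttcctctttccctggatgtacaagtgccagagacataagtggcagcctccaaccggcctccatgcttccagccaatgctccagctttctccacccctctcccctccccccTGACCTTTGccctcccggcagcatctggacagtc
Capitals mark matches on either strand to 4 motifs, namely the HNF1 half-site GTTAAT, the C/EBP motif TTGCNNAA, the IL-6 element core CTGGGA and the HNF4 motif CAAAGGTCA, which were picked after several patterns had been looked at. All 3 fibrinogen regions held the IL-6 element core, at 121, 91 and 13 bases before the start for Fga, Fgb and Fgg. Fga and Fgb also held the C/EBP motif, 135 and 80 bases before the start. They held the HNF1 half-site too, 43 and 29 bases before the start, and that of Fga lies in the bases not printed. Klkb1 held the C/EBP motif and the IL-6 element core, F10 the IL-6 element core, and F7 the HNF4 motif. No matches overlapped each other in these regions. Over 250 bases before the start, the shares of all 32851 mouse promoters with a match were 6.43% for the HNF1 half-site, 9.56% for C/EBP, 27.0% for the IL-6 element core and 0.426% for HNF4. Among the 27 matched members, 6, 9, 11 and 1 genes had a match, in the same order. A match is a description of letters and not a binding site.

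Values are normalized counts, which are reads divided by a library size factor. Libraries held 48740863 to 56629477 recovered reads, and these totals overlapped between groups. Differences were tested with limma on log2(normalized count + 1) across the 17105 genes with a mean normalized count of at least 10. A gene is called higher or lower in Prox1 OE when its p, adjusted over all those genes, is under 0.05. Prox1 had 4153 and 4664 normalized counts in Control replicates 1 and 2 and 48090, 11113 and 8231 in Prox1 OE replicates 1 to 3, all above Control, with replicate 1 standing apart (log2 fold change 1.9, limma adjusted p 0.061, not called). Of the 10 hepatocyte markers, 9 were called higher and 0 lower (median log2 fold change 1.7), and of 10 cholangiocyte markers 9 were called lower and 0 higher (median -1.14), so the libraries express markers of both cell types named for these tumors. Without Control replicate 1, 2 hepatocyte markers (Asgr1 and Hnf4a) were called higher, without Prox1 OE replicate 2 there were 5, and 6 cholangiocyte markers were called lower without either Control library.

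All 34 members passed the filter, and the lowest value of any member in any library was 346 normalized counts, for F11 in Control replicate 1. Prox1 OE tumors had more mRNA of most clotting factors: 22 members were called higher, 3 lower and 9 were not called. This is 73.5% of the members, while 33.3% of all genes tested were called (17.1% higher and 16.2% lower). The median log2 fold change of the members was 0.97, against -0.02 for all genes. Groups did not overlap for the 22 members called higher and the 3 called lower, as for 30.9% and 32.4% of all genes (63.3% in either direction). All 22 were liver-made, and the 3 lower ones belong to the 5 genes of the cell surface or of many cells. Without Control replicate 1, 8 members were called higher (F2, F7, F9, F10, Proz, F12, F13b and Cpb2) and 2 lower (F3 and Plat).

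**Figure D1:**
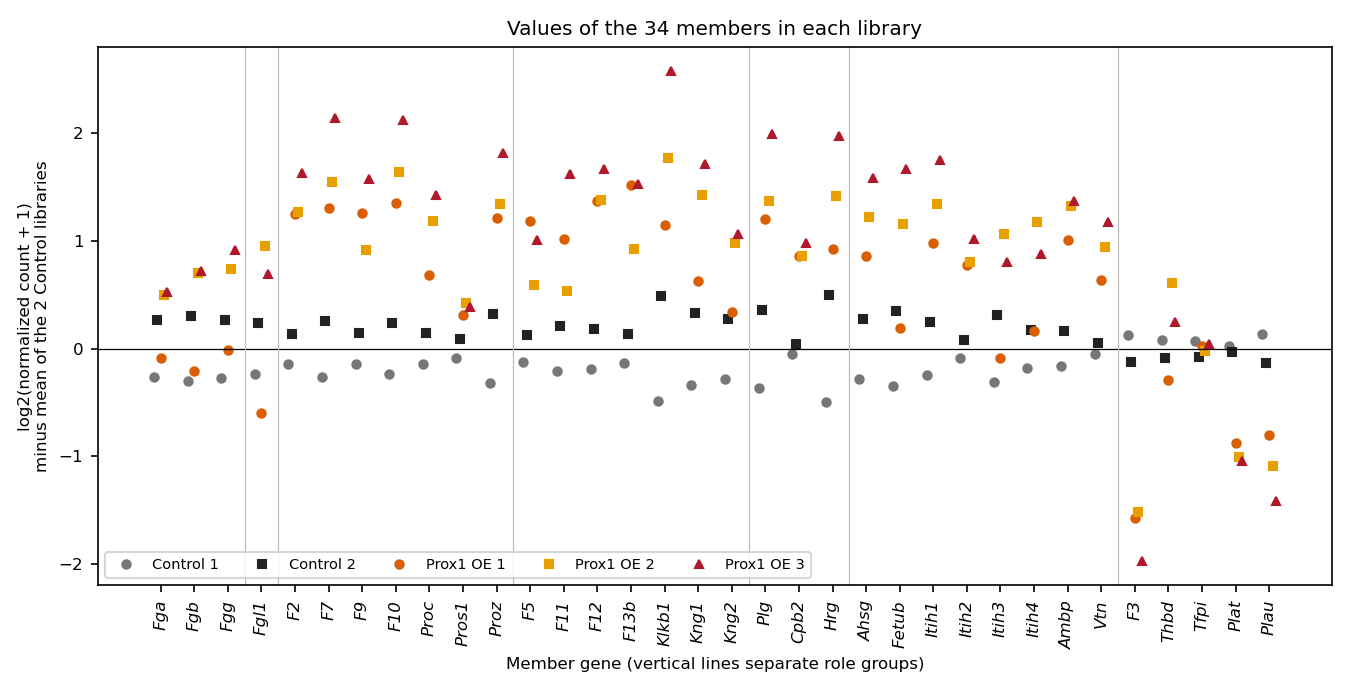
Each point is a library's log2(normalized count + 1) for a member minus the mean of the 2 Control libraries, with members in role order along the horizontal axis. Prox1 OE points of the vitamin K-dependent, cofactor and fibrinolysis factors lie above both Control points, those of the fibrinogen chains overlap Control, and those of F3, Plat and Plau lie below.

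The fibrinogen chains were among the members that were not called. Fga (alpha chain) had 60744 and 87349 normalized counts in Control and 68528, 103191 and 104936 in Prox1 OE. Fgb (beta chain) had 62387 and 95068 in Control and 66888, 125506 and 126795 in Prox1 OE. Fgg (gamma chain) had 55504 and 80642 in Control and 66195, 111898 and 126504 in Prox1 OE. For each chain, Prox1 OE replicate 1 lay between the Control libraries and replicates 2 and 3 lay above both, so the groups overlapped. The means were 74047 ± 18813 (SD, n = 2) and 92219 ± 20535 (SD, n = 3) for Fga, 78727 ± 23109 and 106396 ± 34221 for Fgb, and 68073 ± 17775 and 101532 ± 31462 for Fgg. The log2 fold changes were 0.31 (95% interval -0.31 to 0.94) for Fga, 0.41 (-0.39 to 1.2) for Fgb and 0.55 (-0.2 to 1.29) for Fgg, with limma adjusted p of 0.4, 0.39 and 0.22. Each interval includes 0 and reaches up to 0.94 or more, a size that many other factors had. With total reads as library size, which moves the median of all genes from -0.02 to -0.45, Fga and Fgb had log2 fold changes of -0.12 and -0.02.

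Fgl1, a liver-secreted protein with a fibrinogen-like domain, was not called either. It had 14110 and 19527 normalized counts in Control and 10951, 32227 and 26886 in Prox1 OE. Prox1 OE replicate 1 lay below both Control libraries and replicates 2 and 3 above both. The groups differed by 0.35 on the log2 scale (SE 0.43, limma adjusted p 0.56).

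Without Prox1 OE replicate 1, the log2 fold changes were 0.51 for Fga, 0.71 for Fgb, 0.83 for Fgg and 0.83 for Fgl1. Their limma adjusted p were then 0.11, 0.062, 0.033 and 0.019, so that Fgg and Fgl1 were called. Over the alternative settings, scaling by the chains themselves aside, the adjusted p ran from 0.11 to 0.94 for Fga, 0.062 to 0.95 for Fgb, 0.033 to 0.73 for Fgg and 0.019 to 0.94 for Fgl1.

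The chains were compared with each other per length. In RPKM, the reads per kilobase of the principal transcript scaled to the library's total reads, Fgg was the highest chain in every library, at 757 and 1040 in Control and 680, 1150 and 1140 in Prox1 OE. Fga had 543 and 737 RPKM in Control and 461, 694 and 619 in Prox1 OE. Fgb had 378 and 545 in Control and 306, 573 and 508 in Prox1 OE. The order Fgg, Fga, Fgb was the same in all 5 libraries. The ratio of Fga to Fgg per length was 0.717 and 0.71 in Control and 0.678, 0.604 and 0.543 in Prox1 OE, below both Control values in each Prox1 OE library. The ratio of Fgb to Fgg was 0.5 and 0.524 in Control and 0.45, 0.499 and 0.446 in Prox1 OE, and that of Fga to Fgb overlapped between groups.

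Prothrombin and the other vitamin K-dependent members were all called higher (7 of 7, median log2 fold change 1.38). Gas6, a vitamin K-dependent protein of the list of further clotting genes described below, was called lower. Gas6 had 40201 and 38125 normalized counts in Control and 27227, 29207 and 23414 in Prox1 OE (log2 fold change -0.56, limma adjusted p 0.028). That call was not kept in every alternative setting. F2, prothrombin, had 23190 and 28169 normalized counts in Control and 60739, 61506 and 79285 in Prox1 OE. F10, which activates prothrombin, had 3889 and 5406 in Control and 11680, 14287 and 19919 in Prox1 OE. F7, the partner of tissue factor, had 509 and 729 in Control and 1504, 1778 and 2691 in Prox1 OE. In all 3, every Prox1 OE library lay far above the higher Control library. Their log2 fold changes were 1.38 (SE 0.19), 1.7 (SE 0.24) and 1.66 (SE 0.26), with limma adjusted p of 0.0032, 0.0034 and 0.0046.

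F9, the factor lost in hemophilia B, had 2486 and 3039 normalized counts in Control and 6575, 5191 and 8218 in Prox1 OE. Proz, the cofactor of the factor Xa inhibitor Serpina10, had 2939 and 4589 in Control and 8509, 9299 and 12975 in Prox1 OE. Groups were apart for both, with log2 fold changes of 1.25 (limma adjusted p 0.0047) and 1.46 (0.0051). The anticoagulants of the same family, protein C and protein S, were called higher as well. Proc had 7515 and 9170 in Control and 13345, 18843 and 22292 in Prox1 OE (log2 fold change 1.1, adjusted p 0.01), and it was not called without Control replicate 1 (0.95, 0.089). Pros1 had 2791 and 3164 in Control and 3703, 3985 and 3877 in Prox1 OE (log2 fold change 0.37, SE 0.11, adjusted p 0.039). Pros1 was the smallest change among the 22, it was called only in those fits with a library left out that dropped Prox1 OE replicate 1 (adjusted p 0.08 to 0.33 in the other 4), and its log2 fold change was -0.06 with total reads as library size.

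The cofactor, contact and crosslinking factors were also all called higher (7 of 7, median 1.26). Klkb1, plasma prekallikrein, had 725 and 1422 normalized counts in Control and 2249, 3467 and 6051 in Prox1 OE. F12, which starts the contact pathway, had 7756 and 10023 in Control and 22803, 23006 and 28051 in Prox1 OE. The libraries of F12 sat close together within each group and those of Klkb1 were spread. Klkb1 had the highest log2 fold change of the 34 members, 1.83 (SE 0.42, limma adjusted p 0.016), and F12 had 1.47 (SE 0.17, adjusted p 0.0025). Klkb1 was not called without Control replicate 1 (1.34, adjusted p 0.11) or without Prox1 OE replicate 2 (1.86, 0.059). Over the alternative settings the adjusted p of Klkb1 ran from 0.00025 to 0.11.

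F13b, the carrier subunit of the crosslinking factor XIII, had 1713 and 2058 normalized counts in Control and 5382, 3568 and 5414 in Prox1 OE. F5, the cofactor of factor Xa, had 5959 and 7086 in Control and 14822, 9771 and 13110 in Prox1 OE. F11 had 346 and 463 in Control and 811, 582 and 1235 in Prox1 OE. In these 3 genes replicate 2 was the lowest Prox1 OE library, still above Control. The log2 fold changes were 1.32, 0.93 and 1.06, with limma adjusted p of 0.0041, 0.011 and 0.034. F11 was not called without any library other than Prox1 OE replicate 2, with adjusted p of 0.054 to 0.2, and F5 was not called without Control replicate 1 (0.097).

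The kininogens carry bradykinin and bind prekallikrein. Kng1 had 23119 and 36788 normalized counts in Control and 45059, 78543 and 95822 in Prox1 OE (log2 fold change 1.26, limma adjusted p 0.029). Kng2 had 5795 and 8505 in Control and 8867, 13898 and 14643 in Prox1 OE (log2 fold change 0.79, adjusted p 0.048). Both were apart between groups, with Prox1 OE replicate 1 nearest to Control. The ratio of Kng2 to Kng1 per length was 0.2 and 0.184 in Control and 0.157, 0.141 and 0.122 in Prox1 OE. The genes are close copies that share 5.8% (Kng1) and 5.69% (Kng2) of their stretches of 100 bases, so a few reads may be divided between them. Without Control replicate 1 or Prox1 OE replicate 2 or 3 neither was called, with log2 fold changes of 0.92, 1.17 and 1.03 for Kng1 and 0.52, 0.7 and 0.66 for Kng2, nor was Kng2 without Control replicate 2 (1.07).

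The liver-made proteins of fibrinolysis were called higher in 3 of 3 cases (median 1.44). Plg, plasminogen, had 13650 and 22525 normalized counts in Control and 40502, 45502 and 69758 in Prox1 OE (log2 fold change 1.53, SE 0.29, limma adjusted p 0.0085). Cpb2, the carboxypeptidase TAFI that slows clot lysis, had 9575 and 10218 in Control and 17972, 17984 and 19491 in Prox1 OE (log2 fold change 0.9, SE 0.12, adjusted p 0.003). Hrg, which binds plasminogen and heparin, had 5087 and 10147 in Control and 13658, 19191 and 28195 in Prox1 OE (log2 fold change 1.44, adjusted p 0.021). The Cpb2 libraries were nearly level within each group, and those of Hrg were the most spread. Without Control replicate 1 the changes of Plg and Hrg were 1.16 and 0.94 and were not called (adjusted p 0.079 and 0.15), and Hrg was not called without Prox1 OE replicate 2 (1.45, 0.072).

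Counted together, the 17 clotting and fibrinolysis factors made by liver, fibrinogen aside, were all called higher, against 17.1% of all genes tested. Their log2 fold changes were 0.37 to 1.83, with a median of 1.32. F2, F7, F9, F10, Proz, F12, F13b and Cpb2 kept the call under all alternative settings, scaling by the chains aside. The others did not keep it in all of them.

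**Figure D2:**
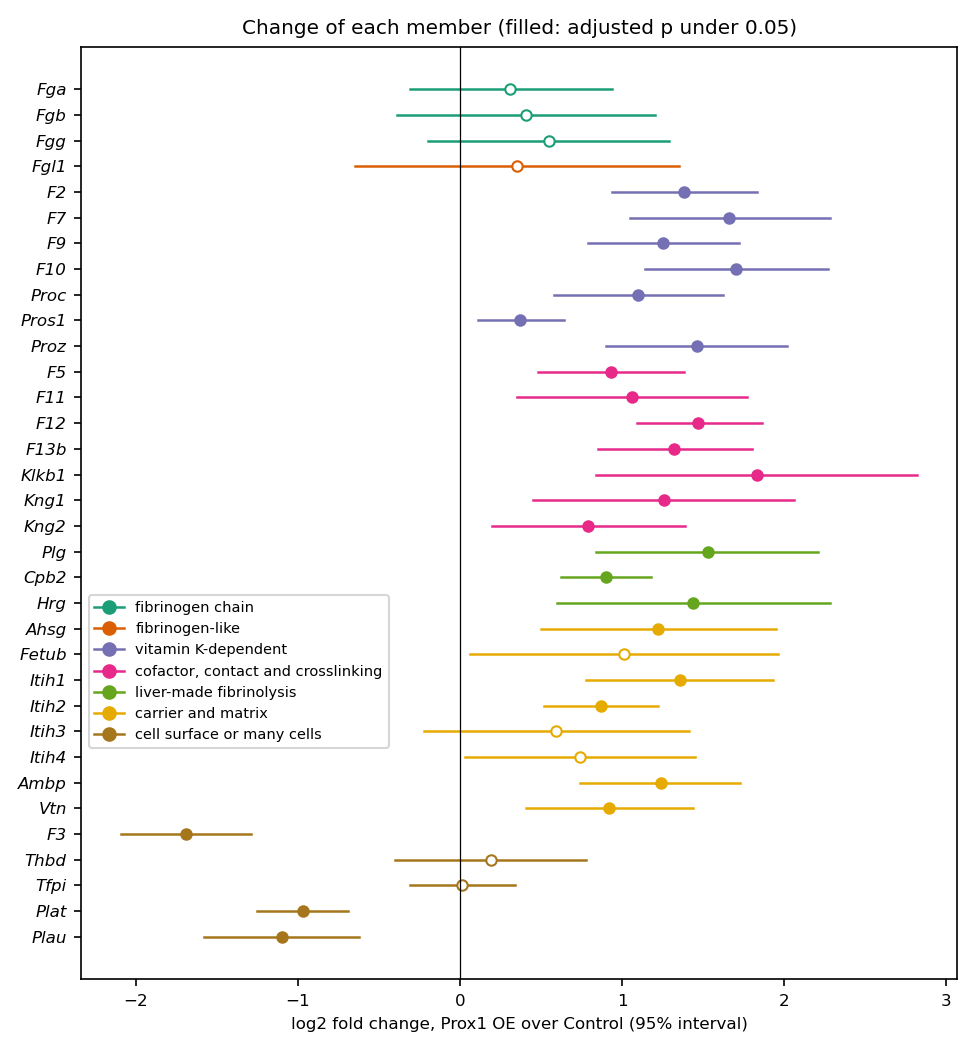
Points are log2 fold changes of each member, Prox1 OE over Control, with 95% intervals as lines, colored by role, and filled points have an adjusted p under 0.05. All 17 clotting and fibrinolysis factors from F2 to Hrg are filled and above 0, the 3 fibrinogen chains and Fgl1 are open, and F3, Plat and Plau are filled and below 0.

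The carrier and matrix proteins were divided, with 5 of 8 called higher and 0 lower (median 0.97). Ahsg, fetuin-A, a calcium phosphate carrier, had 88413 and 130104 normalized counts in Control and 195149, 249959 and 321626 in Prox1 OE (log2 fold change 1.22, limma adjusted p 0.022). Ambp, the precursor of the protease inhibitor bikunin, had 46808 and 58589 in Control and 105637, 131137 and 135358 in Prox1 OE (1.24, 0.0058). Vtn, vitronectin, had 59746 and 64110 in Control and 96571, 119356 and 140160 in Prox1 OE (0.92, 0.018). These 3 were the most abundant members per length in Prox1 OE, where Ahsg reached 2290 to 3310 RPKM against 1380 and 1910 in Control. Without Control replicate 1 none of the 3 was called, with log2 fold changes of 0.94, 1.07 and 0.87, and Ahsg and Vtn were also not called without Control replicate 2 (1.5 and 0.97) or Prox1 OE replicate 2 (1.22 and 0.91).

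The inter-alpha-trypsin inhibitor heavy chains, which bind hyaluronan, differed among themselves. Itih1 had 6112 and 8625 normalized counts in Control and 14291, 18430 and 24508 in Prox1 OE (log2 fold change 1.36, limma adjusted p 0.0069). Itih2 had 19396 and 21755 in Control and 35191, 35974 and 41635 in Prox1 OE (0.87, 0.0059). The groups were apart for these 2 chains, which were not called without Control replicate 1 (1.11 and 0.79). Itih3 had 18330 and 28284 in Control and 21507, 47559 and 39734 in Prox1 OE (0.59, SE 0.35, 0.22). Itih4 had 37398 and 47704 in Control and 47203, 95620 and 77709 in Prox1 OE (0.74, SE 0.3, 0.099). Fetub, fetuin-B, had 3859 and 6259 in Control and 5619, 11000 and 15654 in Prox1 OE (1.01, SE 0.41, 0.094). Itih3, Itih4 and Fetub overlapped Control through Prox1 OE replicate 1 and were not called. Without that library their log2 fold changes were 0.93, 1.03 and 1.42, with adjusted p of 0.024, 0.011 and 0.011, and over the same settings the adjusted p ran from 0.024 to 0.71, 0.011 to 0.42 and 0.008 to 0.41. A fit with the replicate number as a block also leaves out Prox1 OE replicate 3. In it, Itih4 and Fetub were called as well (0.67, limma adjusted p 0.048, and 0.68, 0.008), and Pros1 was not (0.37, 0.074). Pros1 was not called either when that library was left out without a block (0.37, limma adjusted p 0.08).

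Prox1 OE replicate 1 was the lowest Prox1 OE library for 25 of the 29 liver-made members, among them all 3 fibrinogen chains, and replicate 3 was the highest for 24. In 7 of the 29 members (Fga, Fgb, Fgg, Fgl1, Fetub, Itih3 and Itih4), replicate 1 lay below the higher Control library. The same library had the highest Prox1 value, and a link between these was not tested. Without it, 26 members were called higher and 3 lower.

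The fibrinogen chains were compared with the other factors within each library. The mean log2(normalized count + 1) of the chains minus that of the other 26 liver-made members was 3.07 and 3.17 in Control and 2.19, 2.63 and 2.37 in Prox1 OE. Against the 17 clotting and fibrinolysis factors, the difference was 3.92 and 4.01 in Control and 2.83, 3.46 and 3.08 in Prox1 OE. Both differences were lower in every Prox1 OE library than in either Control library, by 0.72 and 0.84 on average. A p is not given for these scores over chosen members. Per length, F2 had 270 and 309 RPKM in Control, under all 3 chains, and 532, 538 and 609 in Prox1 OE, where it passed Fga and Fgb in replicate 1 and Fgb in replicate 3. All members together took 1.38% and 1.78% of reads in Control and 1.77%, 2.46% and 2.47% in Prox1 OE, whereas the 3 chains took 0.413% and 0.574% in Control and 0.351%, 0.592% and 0.547% in Prox1 OE.

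A test of the difference itself was made, chosen after the values were seen, by subtracting the mean of the chains in the same library from every gene and fitting limma again. Relative to the chains, 7.87% of all genes were called, 2.09% higher and 5.78% lower. Of the other liver-made members, F10 (log2 fold change 1.28, limma adjusted p 0.048) and Klkb1 (1.41, 0.049) were called higher. Plg (1.1, 0.053), F2 (0.96, 0.087) and Ahsg (0.8, 0.087) came next and were not called. Apart from Fgl1 (-0.07) and Pros1 (-0.05), the remaining ones had values between 0.17 for Itih3 and 1.24 for F7, none of them called. F3 (-2.11, 0.0011) and Plau (-1.52, 0.037) were called lower and Plat was not (-1.4, 0.058). F10 and Klkb1 were thus the members called higher in this fit, both close to the threshold, and no other setting was run for it. A p that misses the threshold does not show that the other factors changed as the chains did. For F2, for example, Fga minus F2 on the log2 scale was 1.39 and 1.63 in Control and 0.17, 0.75 and 0.4 in Prox1 OE, without overlap. With so few libraries a lack of overlap is common, as it held for 63.3% of all genes tested.

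The chains and the other members were also set beside general markers. The mean of the chains minus that of the 10 hepatocyte markers was 1.76 and 1.73 in Control and 0.42, 0.96 and 0.42 in Prox1 OE on the log2 scale. For the other 26 liver-made members it was -1.3 and -1.44 in Control and -1.77, -1.67 and -1.95 in Prox1 OE. Both differences were lower in all Prox1 OE libraries than in Control, on average by 1.15 for the chains and 0.42 for the others. The summed level of the hepatocyte markers was 741918 and 1174213 normalized counts in Control and 2410343 to 3758878 in Prox1 OE. Most of it was Alb, with 480678 and 798691 in Control and 1559106 to 2594529 in Prox1 OE. The part of this shift in the members' rise was not tested. Of 17 acute phase genes, the class to which fibrinogen belongs, 7 were called higher and 0 lower. This is 41.2% called, against 33.3% of all genes tested. The median log2 fold change of the 17 genes was 0.63. That median was 0.2 with total reads as library size, and 3 of the genes were called without Control replicate 1 and 11 without Prox1 OE replicate 1.

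**Figure D3:**
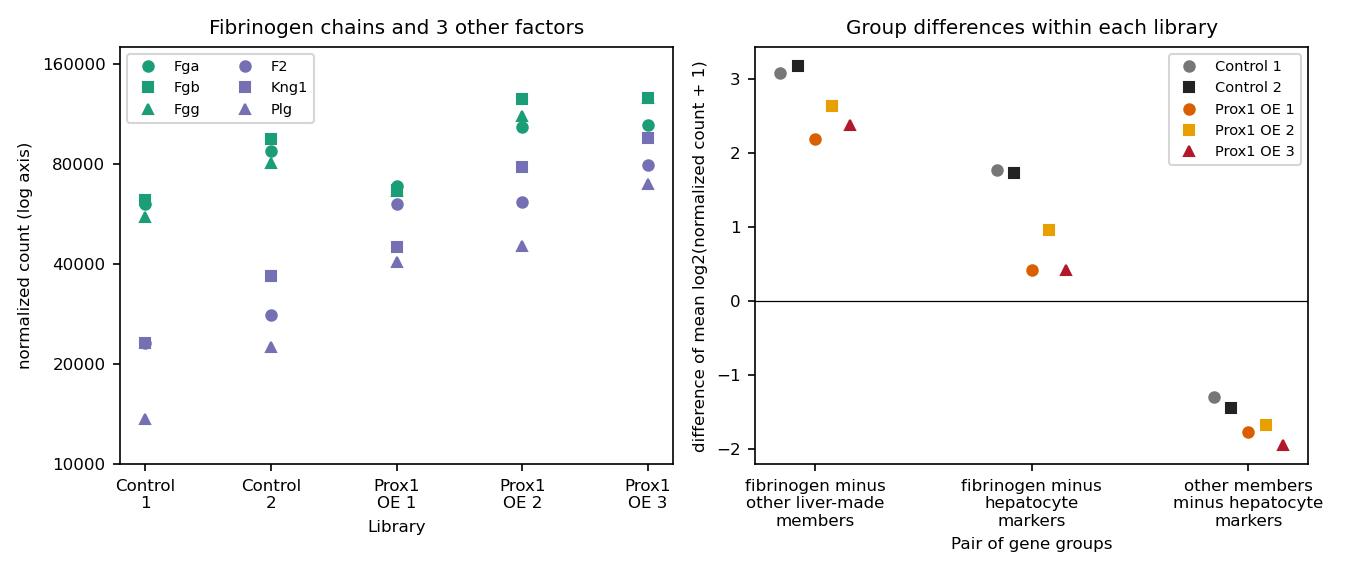
Left, normalized counts (log axis) of the 3 fibrinogen chains in green and of F2, Kng1 and Plg, the most abundant of the 17 other factors, in purple, by library. Right, differences between the mean log2 values of pairs of gene groups in each library, where the chains stand 3.07 and 3.17 above the other liver-made members in Control and 2.19 to 2.63 above them in Prox1 OE.

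The 5 members of the cell surface or of many cell types went another way, with 0 called higher and 3 lower (median -0.97). F3, tissue factor, had 2863 and 2411 normalized counts in Control and 882, 918 and 670 in Prox1 OE. Plau, the urokinase activator, had 1057 and 876 in Control and 552, 452 and 360 in Prox1 OE. Plat, the tissue activator, had 1807 and 1734 in Control and 964, 884 and 859 in Prox1 OE. All Prox1 OE libraries lay far below Control for these genes. The log2 fold changes were -1.69 (SE 0.17), -1.1 (SE 0.21) and -0.97 (SE 0.12), with limma adjusted p of 0.0023, 0.0077 and 0.0027, and the call of Plau was lost without Control replicate 1 (-0.97, 0.079).

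Thbd and Tfpi, anticoagulants best known from endothelium, were not called. Thbd, thrombomodulin, had 612 and 546 normalized counts in Control and 473, 883 and 687 in Prox1 OE (log2 fold change 0.19, 95% interval -0.4 to 0.78, limma adjusted p 0.59). Tfpi, the inhibitor of tissue factor, had 517 and 467 in Control and 500, 484 and 506 in Prox1 OE (0.01, -0.31 to 0.34, 0.95). Tfpi was level across the libraries and Thbd was scattered. With total reads as library size the changes were -0.24 and -0.42, without Prox1 OE replicate 2 that of Thbd was -0.02, and without Control replicate 2 that of Tfpi was -0.06.

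Markers of other cells were counted beside these genes. Of all genes tested, 33.3% were called (17.1% higher and 16.2% lower). The shares called were 30% of the endothelial, 60% of the stellate and fibroblast, 37.5% of the macrophage and 20% of the red cell markers. Of 10 endothelial markers, 3 were called higher and 0 lower. The counts were 2 and 4 with total reads as library size, and 2 and 0 without Prox1 OE replicate 2 or 3. Of the 3, Clec4g alone was called under every setting. The endothelial markers summed to 13685 and 17023 normalized counts in Control and 16153 to 22700 in Prox1 OE. Of 10 stellate cell and fibroblast markers, 2 were called higher and 4 lower (1 and 7 with total reads as library size, 1 and 2 without Control replicate 1), with sums of 130497 and 125704 in Control and 71328 to 83477 in Prox1 OE. The collagens Col1a1, Col1a2 and Col3a1 made up 74.7% to 84% of these sums, and the other 7 markers summed to 20838 and 24758 in Control and 18030 to 18627 in Prox1 OE. The cholangiocyte markers summed to 834080 and 764984 in Control and 526395 to 710772 in Prox1 OE, of which Spp1, the marker not called, made up 93.1% to 96.9%. The other 9 summed to 49331 and 52973 in Control and 17078 to 21948 in Prox1 OE. The part of these shifts in the fall of F3, Plat and Plau was not tested. Of 8 macrophage markers 3 and of 5 red cell markers 1 were called higher, and 0 lower in both lists. The macrophage count was 1 without Control replicate 1 and with limma run without its mean-variance trend, 5 without Control replicate 2, 2 with total reads as library size and 6 with DESeq2 or the replicate block, and the red cell count was 0 without Control replicate 2, 2 without Prox1 OE replicate 2 and 5 with DESeq2. Of 9 platelet and megakaryocyte markers, which bear on F5 and Pros1, 2 were abundant enough to test and 0 were called. Of the other 7 platelet markers, Gp1bb was at 0 in 4 libraries.

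Several members lie side by side in the genome (mm10 coordinates). Neighbors within 100 kb all had positive log2 fold changes, but so had all 29 liver-made members, so the shared sign says nothing about position. Fgg, Fga and Fgb span 42.1 kb on chromosome 3, 83007724 to 83049863, with log2 fold changes of 0.31 to 0.55. F7, F10 and Proz follow each other on chromosome 8, 13026034 to 13076026, and changed by 1.46 to 1.7. On the same chromosome, F11 and Klkb1 span 53.7 kb, from 45241174 to 45294859, at 1.06 and 1.83. Itih4, Itih3 and Itih1 span 56.8 kb on chromosome 14, 30886476 to 30943289, and covered a wider range, 0.59 to 1.36. Ahsg, Fetub, Hrg, Kng2 and Kng1 span 191 kb on chromosome 16, 22891277 to 23082078, at 0.79 to 1.44.

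Some counts may hold reads of overlapping genes. The annotated gene Gm45753 shares 2267 exon bases with Klkb1 on the same strand. It had no reads in 4 of the libraries, and 42.1% of the 100-base stretches of Klkb1 are shared with it, so the level of Klkb1 is uncertain. Antisense genes overlap exons of Fgg (Gm30097, 115 bases), F5 (Gm16548, 262 bases), Plg (Slc22a3, 420 bases) and Ahsg (Gm30505, 62 bases). Gm16548 had 69.8 and 93.2 normalized counts in Control and 177, 235 and 406 in Prox1 OE. Slc22a3 had 87.1 and 124 in Control and 326, 300 and 380 in Prox1 OE. Both were far below F5 and Plg in every library.

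A list of 32 further genes of clotting and fibrinolysis gave a wider view. Of 31 tested, 14 were called higher, 6 lower and 11 not called, with a median log2 fold change of 0.4, and F2rl2 was too low to test. The share called was 64.5%, against 33.3% of all genes tested. With total reads as library size the balance turned, to 10 higher and 11 lower with a median of -0.03. Plasma inhibitors of thrombin and plasmin were among those called higher. Serpinc1, antithrombin, had 22647 and 31985 normalized counts in Control and 86015, 88270 and 123313 in Prox1 OE (log2 fold change 1.86, limma adjusted p 0.0028). Serpind1, heparin cofactor II, had 2996 and 5211 in Control and 14644, 11839 and 18220 in Prox1 OE (1.89, 0.0033). Serpinf2, the plasmin inhibitor, had 8348 and 13381 in Control and 16930, 25646 and 30383 in Prox1 OE (1.16, 0.02). Groups were apart for all 3. The enzyme that recycles vitamin K, Vkorc1, had 905 and 1109 in Control and 1624, 2480 and 3176 in Prox1 OE (1.22, 0.013).

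Also called higher by at least 1 on the log2 scale were Hgfac (1.84), a protease of the factor XII family, S100a10 (1.2), a plasminogen receptor subunit, C4bp (1.06), which binds protein S in humans, and Tfpi2 (1.03), a Kunitz inhibitor. Their limma adjusted p ran from 0.0029 to 0.0071. Among the genes called lower, Plaur, the urokinase receptor, had 515 and 800 normalized counts in Control and 262, 249 and 189 in Prox1 OE. It was below Control in every Prox1 OE library, as was its ligand Plau. The log2 fold change of Plaur was -1.47 (SE 0.24, limma adjusted p 0.0052). The protease receptor F2rl1, which is cut by the tissue factor and factor VIIa complex, had 2925 and 2822 in Control and 1734, 972 and 671 in Prox1 OE (-1.46, 0.017). The broad protease inhibitor A2m had 3866 and 4191 in Control and 1496, 891 and 573 in Prox1 OE (-2.14, 0.0049). Without Control replicate 1, 5 genes of this list were called higher and 2 lower, and without Control replicate 2, 9 and 2. Of the genes named here, Serpinf2, Vkorc1, C4bp, Tfpi2 and F2rl1 were not called without Control replicate 1 (adjusted p 0.16, 0.093, 0.08, 0.058 and 0.09). F2rl1 was also not called without Control replicate 2, and Serpinf2, Vkorc1 and F2rl1 were not without Prox1 OE replicate 2. Serpinc1, Serpind1, Hgfac, S100a10, Plaur and A2m were called in each fit that left out 1 library.

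**Figure D4:**
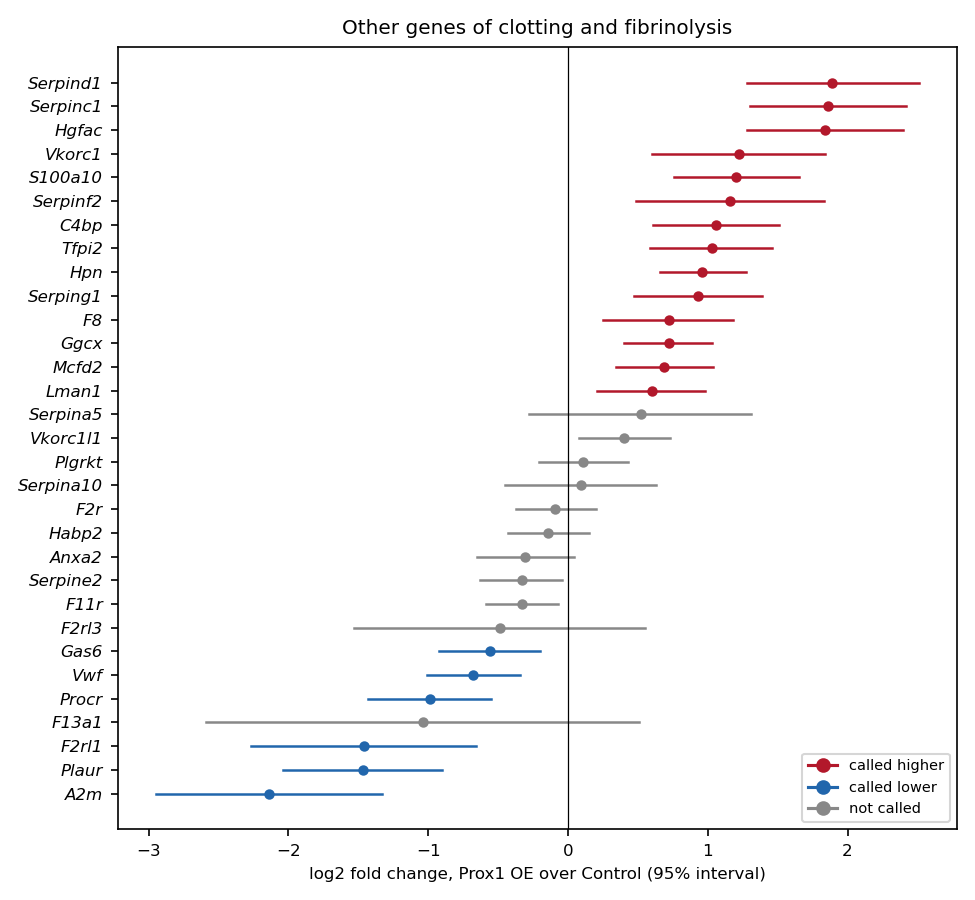
Points are log2 fold changes of the 31 tested genes of the further clotting and fibrinolysis list, Prox1 OE over Control, with 95% intervals as lines and genes ordered by change. Red marks the 14 called higher, led by Serpind1, Serpinc1 and Hgfac, blue the 6 called lower, with A2m lowest at -2.14, and gray the 11 not called.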

How the data were processed

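Libraries were made by the authors with the strand-keeping dUTP protocol, sequenced as 100-base pairs and mapped with STAR to mm10. The tool that counted reads is not given in the sources used here. The deposited values are a signal, counts divided by the library's DESeq2 size factor, and 1 read was worth 0.822 to 1.18 normalized counts. Whole reads were recovered for 100% of values within a tolerance of 0.01, of 28705 genes with a read. A table of the authors' own comparison (mean, shrunken fold change, p-values) was not used, and 0 columns of per-sample values were unassigned.

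The members, roles and marker lists were chosen with earlier results of these data known. Symbols matched 55137 gene identifiers. limma 3.58.1 in R 4.3.3 (lmFit, eBayes with trend, two-sided, no covariate) was fitted to log2(normalized count + 1) of all 5 libraries, with Benjamini-Hochberg adjustment and genes under a mean of 10 left out. Fold changes on this scale understate those of low genes. With 2 against 3 libraries an exact permutation p of a single value cannot go under 0.1, so none is given. All members were named, and of the further clotting list Gas6 and those with an adjusted p under 0.05 and an absolute log2 fold change of at least 1. Lists were described by counts, and 1 gene of the further clotting list is not reported here. Per-length levels used total reads and the GENCODE principal transcript (GRCm38).

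Alternatives were TMM, upper-quartile and total-read scaling, pseudocounts of 0.1 and 10, no filter or a mean of 50, no trend, a block for the replicate number, each library left out, and tests of the recovered reads with edgeR 4.0.16 or DESeq2 1.42.0. Scaling by the fibrinogen chains was added after seeing the data. Replicate libraries were distinct, with a chi-square of reads per degree of freedom of 36.2 in Control and 73.5 to 115 in Prox1 OE. On simulated counts of 16910 genes with 200 changed for this comparison, limma recovered 81% of 4-fold and 59% of 2-fold changes with 13 false calls.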

Additional observations from a re-analysis of the deposited data

How the results depend on the processing

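Counts moved with single libraries and with the scaling. Over the fits that each left out 1 library, 891 to 3729 genes were called higher (2933 with all libraries) and 620 to 3765 lower (2769), 8 to 26 members were called higher (22) and 2 to 3 lower (3), 5 to 14 further clotting genes higher (14) and 2 to 8 lower (6), with the lowest counts without Control replicate 1, where the lone Control library is assumed to vary like the other group. The median change of the fibrinogen chains minus that of the other liver-made members was -0.82. It ran from -0.95 to -0.61 over these fits and from -0.82 to -0.78 under the other settings. Library scaling cancels almost fully in this difference, and the filter and the trend leave log2 fold changes unchanged. Those settings therefore could not move it.

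Total reads as library size gave 1472 genes higher and 6856 lower, 19 members higher, with F11 (0.63), Kng2 (0.36) and Pros1 not called higher, and 10 further clotting genes higher and 11 lower, and 17.7% of calls were higher in place of 51.4% (upper-quartile factors gave 60.3% and the fit without Control replicate 2 gave 62.1%). The median of all genes became -0.45, and Fga (-0.12), Fgb (-0.02), Fgl1 (-0.08), Pros1 (-0.06), Thbd (-0.24) and Tfpi (-0.42) changed sign. Over the fits without 1 library, Thbd ran from -0.02 (without Prox1 OE replicate 2) to 0.43 and Tfpi from -0.06 (without Control replicate 2) to 0.09. Relative to the fibrinogen chains 2 members were called higher and 2 lower, and Fgl1 (-0.07), Pros1 (-0.05), Thbd (-0.23) and Tfpi (-0.41) changed sign by construction of that scale.

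A replicate block, for which Prox1 OE replicate 3 has no partner and is left out, gave 23 members called higher and 3 lower, and 14 and 5 further clotting genes. The calls of Pros1, Fetub and Itih4 changed and no other member's did. Same-numbered libraries of the 2 pairs deviated from their groups with correlations of 0.14 and 0.02 across genes, and no label ties the numbers to a shared mouse or day. limma without the trend called 16 members higher and no filter 18, with Pros1, F11, Kng1 and Kng2 not called in both fits and Klkb1 and Hrg not called without the trend, while edgeR called 22 and DESeq2 24. Of 544 member values under these settings, scaling by the chains aside, 482 kept direction and call, 45 lost a call, 9 gained one and 8 changed sign, over 24 members. The other 10 (F2, F7, F9, F10, Proz, F12, F13b, Cpb2, F3 and Plat) kept theirs under all of these settings. The cause of these changes was not tested.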

Other observations

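Some markers of liver sinusoid cells were called higher. Clec4g, a lectin of sinusoidal endothelium, had 283 and 565 normalized counts in Control and 1629, 2551 and 3537 in Prox1 OE (log2 fold change 2.61, limma adjusted p 0.0035). Stab2, a scavenger receptor of the same cells, had 1054 and 1457 in Control and 2079, 2451 and 3242 in Prox1 OE (limma adjusted p 0.011). Of the Kupffer cell markers, Clec4f had 1315 and 2551 in Control and 4119, 4690 and 8473 in Prox1 OE (limma adjusted p 0.016). Vsig4 had 1173 and 1633 in Control and 2639, 1995 and 3188 in Prox1 OE (log2 fold change 0.89, limma adjusted p 0.022). Cd5l had 2546 and 3489 in Control and 7046, 6873 and 9932 in Prox1 OE (limma adjusted p 0.0037). For all 5, each of the 3 Prox1 OE libraries lay above both Control libraries. Stab2, Clec4f and Vsig4 were not called without Control replicate 1 (adjusted p 0.097, 0.11 and 0.17), whereas Clec4g and Cd5l were called in each fit that left out 1 library. Clec4f and Vsig4 were also not called by limma without the mean-variance trend, nor Vsig4 with total reads as library size. Lyve1, also of sinusoidal endothelium, had 1268 and 1922 in Control and 1075, 759 and 1538 in Prox1 OE and was not called (log2 fold change -0.53, limma adjusted p 0.21). The macrophage markers Marco, with 210 and 537 in Control and 501, 624 and 1159 in Prox1 OE, and Timd4, with 87.1 and 186 in Control and 231, 217 and 420 in Prox1 OE, were not called (log2 fold changes 1.08 and 1.11, limma adjusted p 0.11 and 0.067). All 8 macrophage markers had positive log2 fold changes, with 3 called (1 without Control replicate 1). Pan-endothelial Pecam1 had 1964 and 2273 in Control and 1682, 1653 and 1937 in Prox1 OE and was not called (limma adjusted p 0.15). Tek, also pan-endothelial, had 366 and 342 in Control and 487, 486 and 598 in Prox1 OE. It was called higher (log2 fold change 0.56, limma adjusted p 0.036), a call not kept in every alternative setting. The calls of endothelial markers were thus not limited to those of sinusoids. These genes were picked from the marker lists after their values were seen.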
